A study of Homo sapiens with 19 samples.

Results

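The 44 genes described here encode the proteins that copy DNA, drive the transitions of the cell cycle and build the mitotic spindle, together with MKI67 and TOP2A, which are widely read as markers of proliferation. They were taken by a list of gene symbols that has no threshold on measured values, although it was drawn up with earlier results of these data known. All 44 were present among the 23441 genes of the count table and among the 14225 genes with enough counts to be tested. RNA-seq was performed on pools of 786-O cells, an established human kidney cancer line of the clear cell type that has lost functional VHL, so that HIF-2α is stable in normal oxygen. The pools were transduced with lentivirus from the empty pRRL vector (control cells), from pRRL-HIF-1a (HIF-1α cells) or from pRRL-HIF-2a (HIF-2α cells), and each pool gave 3 RNA libraries numbered 1 to 3. All 3 pools share the VHL defect and the endogenous HIF-2α, the vector drives its cDNA continuously rather than in response to oxygen, and the cells are uncloned pools of 1 line. ChIP-seq of the same pools gave 7 peak lists, 1 per antiserum (HIF-1α, HIF-2α or HIF-1β) and pool, HIF-1α having been precipitated in the HIF-1α cells alone.

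In edgeR's quasi-likelihood test on all 9 libraries without a replicate term, no member passed an adjusted p of 0.05 in any comparison of pools. That fit called 0 of all 14225 tested genes in both comparisons with control cells and 7 between the HIF pools. With the replicate number as a block edgeR again called 0 members. It then called 1132 tested genes for HIF-1α against control, 38 for HIF-2α against control and 843 between the HIF pools. DESeq2 with the replicate number as a block called 4 members lower in HIF-1α than in control cells and 1 lower than in HIF-2α cells, shares of members no higher than those of all tested genes. Levels of single members differed between libraries by 2.13 to 8.81 times. The lowest level of 35 members was in control library 1 (10.4% of tested genes) and the highest level of 30 members was in control library 2 (9.24%). The 3 control libraries thus spanned most of the range seen. Fitted levels of 38 members were lower in HIF-1α cells than in control cells, against 47.6% of tested genes. Those of 40 members were lower in HIF-1α cells than in HIF-2α cells, against 48.1%. Ratios of HIF-1α to control cells within libraries of the same number changed sign between numbers. In replicate 1 all 44 members were higher in HIF-1α cells and 0 were lower, while 47.6% of tested genes were lower. In replicate 2 all 44 were lower, against 49.8% of tested genes.

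Most of these genes are transcribed in waves. E2F factors, held back by the retinoblastoma protein until cyclin-dependent kinases act on it, switch on the genes of DNA replication as cells leave G1. A later wave in G2 depends on FOXM1 and on B-MYB, which join the MuvB complex at cell cycle homology region (CHR) elements, often beside CCAAT boxes that bind NF-Y. Resting cells carry little mRNA of either wave, so the summed level in a culture follows the share of cycling cells. In bulk RNA, fewer cycling cells and less mRNA per cycling cell cannot be told apart. HIF acts at hypoxia response elements (HRE) as a dimer of an α subunit with HIF-1β.

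The promoters of 5 members with a HIF-1α peak nearby are shown. CDC20, PLK1, MCM7 and RRM2 were chosen because they had an unadjusted p under 0.05 in a comparison of pools (edgeR without the block). MCM2 was chosen for its E2F words. PCNA, E2F1 and CCNB1 also had an unadjusted p under 0.05 (edgeR without the block). Their nearest HIF-1α peaks were 879672, 45977 and 732806 bp from a start site, and they are not shown. BIRC5 met the same p and had a HIF-1α peak 68 bp from a start site, but no RefSeq window was at hand for it. The windows are those of RefSeq (GRCh38.p14), from 250 bases before to 50 after the start site, read on the strand of the gene. Each matched the GRCh37 genome exactly and once, and positions are given in GRCh37. Capitals mark the HRE core (ACGTG, or with another first base GCGTG), the CHR (TTTGAA, or with an inner C TTCGAA), the CCAAT box, and E2F words (TTTCCCGC, TTTGGCGC, TTTCGCGC or TTTGCCGC), all searched on both strands. In CDC20, an activator of the anaphase-promoting complex (chr1:43824402-43824701, plus strand), and in PLK1, a mitotic kinase (chr16:23689960-23690259, plus strand), CHR and CCAAT words stand before the start, whereas MCM2 (chr3:127317004-127317303, plus strand) and MCM7 (chr7:99698971-99699270, minus strand), subunits of the replicative helicase, carry E2F words. RRM2, the inducible subunit of ribonucleotide reductase (chr2:10262616-10262915, plus strand), has 3 CCAAT boxes.
CDC20: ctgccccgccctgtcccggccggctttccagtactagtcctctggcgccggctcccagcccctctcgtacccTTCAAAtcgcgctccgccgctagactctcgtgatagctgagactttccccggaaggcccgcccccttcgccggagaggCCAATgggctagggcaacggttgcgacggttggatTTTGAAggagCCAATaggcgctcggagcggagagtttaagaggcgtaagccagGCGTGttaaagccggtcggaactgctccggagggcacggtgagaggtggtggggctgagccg
PLK1: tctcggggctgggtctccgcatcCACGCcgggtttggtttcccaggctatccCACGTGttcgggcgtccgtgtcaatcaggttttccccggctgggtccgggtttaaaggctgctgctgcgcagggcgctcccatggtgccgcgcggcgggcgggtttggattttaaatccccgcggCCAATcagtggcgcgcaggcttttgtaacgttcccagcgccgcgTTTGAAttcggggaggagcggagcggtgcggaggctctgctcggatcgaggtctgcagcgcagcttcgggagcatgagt
MCM2: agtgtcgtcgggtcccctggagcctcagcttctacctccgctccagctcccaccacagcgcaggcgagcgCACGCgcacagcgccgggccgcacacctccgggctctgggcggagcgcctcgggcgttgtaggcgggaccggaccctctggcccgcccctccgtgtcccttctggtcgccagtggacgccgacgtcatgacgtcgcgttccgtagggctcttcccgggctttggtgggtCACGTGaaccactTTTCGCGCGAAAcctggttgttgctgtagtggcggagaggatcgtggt
MCM7: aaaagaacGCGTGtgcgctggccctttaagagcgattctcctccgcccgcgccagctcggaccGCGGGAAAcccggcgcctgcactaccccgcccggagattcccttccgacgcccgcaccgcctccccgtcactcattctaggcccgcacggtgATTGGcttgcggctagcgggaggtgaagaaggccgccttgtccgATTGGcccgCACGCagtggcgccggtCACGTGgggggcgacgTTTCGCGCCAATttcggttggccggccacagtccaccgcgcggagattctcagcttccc
RRM2: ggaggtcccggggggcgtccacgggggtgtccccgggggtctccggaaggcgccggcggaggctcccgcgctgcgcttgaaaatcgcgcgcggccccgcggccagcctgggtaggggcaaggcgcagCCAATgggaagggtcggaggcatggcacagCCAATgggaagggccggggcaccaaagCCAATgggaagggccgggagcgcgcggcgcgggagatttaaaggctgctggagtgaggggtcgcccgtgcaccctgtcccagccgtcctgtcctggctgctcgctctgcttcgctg

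In these windows CACGTG reads as ACGTG on either strand, the E2F words of MCM2 overlap one another on opposite strands, and an E2F word of MCM7 overlaps a CCAAT box. RefSeq windows were at hand for 34 members and not for BIRC5, AURKA, UBE2C, TPX2, CCNE2, E2F8, MCM5, FOXM1, CDK2 and MCM4. An E2F word was found in 14 of 34 windows (41.2%), against 3.33% of the 27305 RefSeq windows and 5.21% of the 10329 windows of tested genes. CCAAT was found in 25 windows (73.5%, against 35.7% of all windows and 36.4% of tested ones), and a CHR word in 14 (41.2%, against 16.6% and 11.1%). The HRE core was in 20 windows (58.8%), beside 48.4% of all windows and 61.9% of those of tested genes. E2F words were in 11 of 15 windows of the replication and G1/S genes and in 3 of 19 of the G2 and mitosis genes, whereas CHR words were in 2 of 15 and 12 of 19. These are matches of letters and are given as a description.

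HIF peaks lay near many members, at about the share of other genes. Of the 44, 27 (61.4%) had a peak midpoint of at least 1 list within 10 kb of an annotated start site, against 55.0% of the 13769 tested genes that could be placed. The HIF-1α list had a peak near 15 members (34.1%, against 34.6% of tested genes), and HIF-1β in the same cells near 16 (36.4%, against 40.8%). HIF-1β in control cells lay near 14 members (31.8%, against 25.7%), and in HIF-2α cells near 6 (13.6%, against 16.2%). HIF-2α lay near 8 members in HIF-2α cells (18.2%, against 14.5%), near 2 in control cells (CENPA and PCNA, 4.55% against 5.33%) and near 1 in HIF-1α cells (CENPA, 2.27% against 4.22%). With 1 library per list no test was made.

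Among the genes whose promoters are shown, the midpoint of the HIF-1α peak at CDC20 (chr1:43823404-43825903) lay 1 bp from the RefSeq start. The HIF-1β peaks nearest to an annotated start of CDC20 were centred 8661 bp after the RefSeq start in HIF-1α cells and 8718 bp after it in control cells. The HIF-1α peak at MCM2 (chr3:127315547-127318046) was centred 458 bp before the start. HIF-1β peaks there were centred 104 bp before it in HIF-1α cells and 267 bp before it in control cells. Peaks of HIF-1β and HIF-2α in HIF-2α cells were 7526 and 7574 bp before it. At PLK1 the HIF-1α peak (chr16:23689607-23692106) was centred 646 bp after the start and was its only peak within 10 kb in any list. The HIF-1α peak at MCM7 (chr7:99698595-99701094) was centred 824 bp before the start, and peaks of HIF-1β in HIF-1α and control cells and of HIF-2α in HIF-2α cells were also near. RRM2 had peaks in 5 lists, and its HIF-1α peak (chr2:10259785-10262284) was centred 1832 bp before the RefSeq start but 173 bp after another annotated start. Every window in the lists is 2500 bp wide and has no score, so a midpoint is only a rough position.

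**Figure D1:**
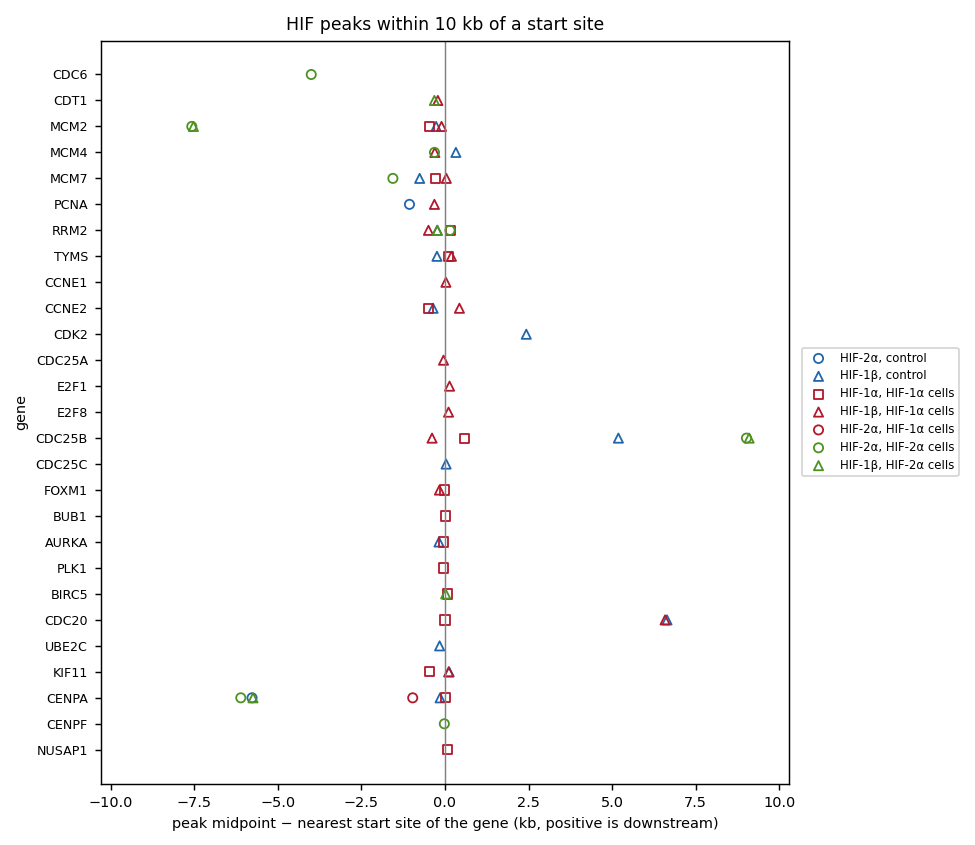
Peaks within 10 kb of a start site, for the 27 members that had one. The horizontal axis gives the distance from the nearest annotated start site to the peak midpoint in kb, and each symbol is the nearest peak of 1 list. Most symbols of the 15 members with a HIF-1α peak sit within 1 kb of the start.

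Library totals were 27852754 to 54287621 counts. Reads of HIF1A were 171 to 1682 CPM (counts scaled to the size of the library) in HIF-1α cells and 15.3 to 152 in the other 6 libraries, the highest of these in control library 3. The lowest level in HIF-1α cells was that of library 1, and its part in the results below was not tested. The paper reports that endogenous HIF1A transcripts of this line are truncated or fused and predicts that they encode no active HIF-1α. EPAS1, the gene of HIF-2α, was at 880 to 3244 CPM in HIF-2α cells and 162 to 627 elsewhere. Markers of the line were high in every library (PAX8 175 to 364 CPM, KRT8 289 to 603), and 12 markers of leukocytes, endothelium and fibroblasts summed to 1.44 to 14.5 CPM, of which LUM made up 0.457 to 10.4, with CD3E at 0 in all 9 libraries. LUM was lowest in replicate 1 of every pool, and its part in the results below was not tested. The share of counts in the 50 most abundant genes was 13.0% in control library 1, within the 12.2% to 15.7% of the other libraries.

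The 44 members together took 0.234% of the counts in control library 1, 0.778% in control library 2 and 0.617% in control library 3. Their share was 0.323%, 0.483% and 0.370% in HIF-1α cells and 0.465%, 0.605% and 0.440% in HIF-2α cells, so both HIF pools fell inside the span of the controls. The median member stood at 45.6, 150.2 and 112 CPM in control cells, at 59.5, 92.3 and 65.0 in HIF-1α cells and at 84.5, 101.7 and 87.2 in HIF-2α cells. Control library 1 was the lowest of the 9 libraries for 35 members, which it was for 10.4% of tested genes. Replicate 3 of HIF-1α cells was the lowest for 8 more (CDC6, MCM4, MCM7, PCNA, RRM2, E2F1, FOXM1 and CDC20). That is 18.2% of members, close to the 18.8% of tested genes. Control library 2 was the highest for 30 members, against 9.24% of tested genes, and control library 3 for 8 (18.2%), against 15.9%.

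**Figure D2:**
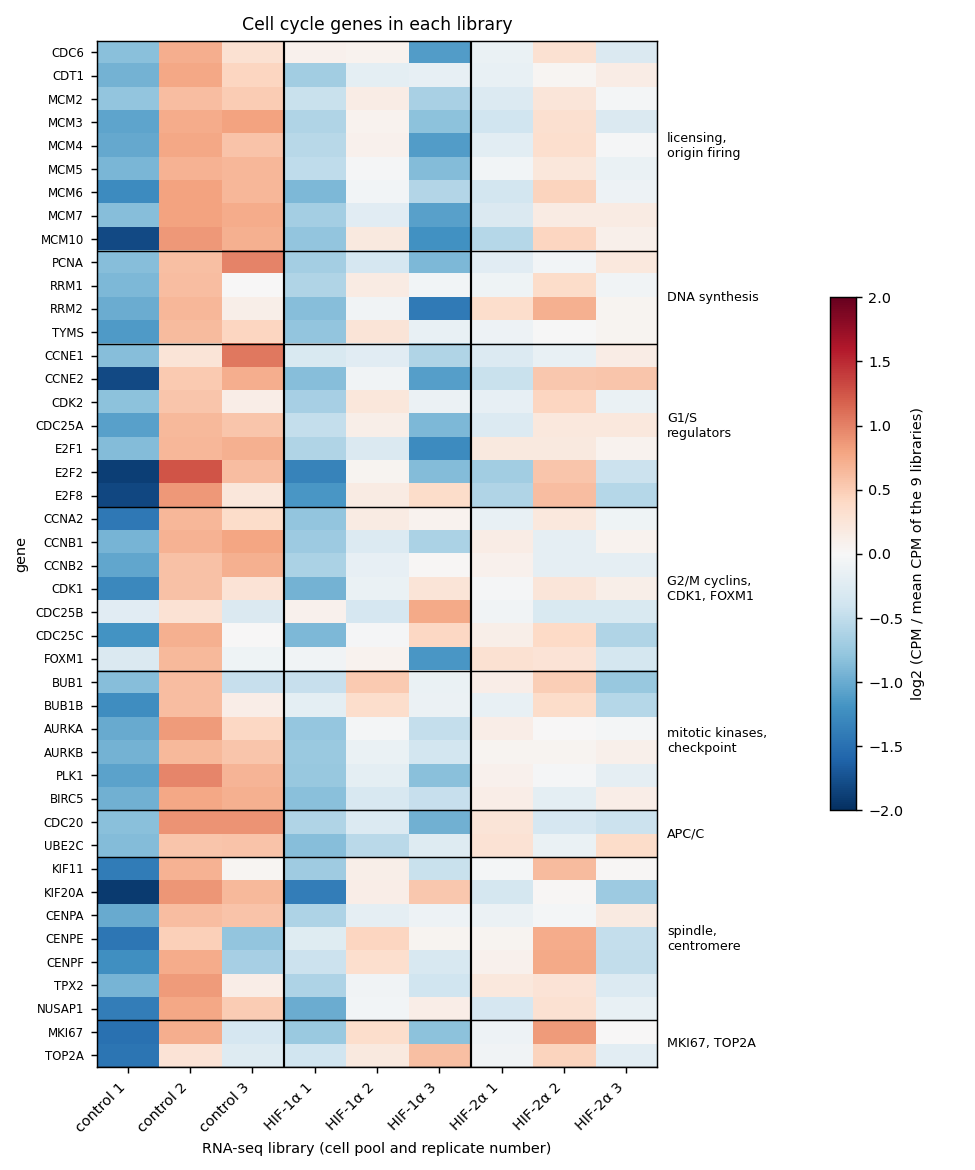
Level of each of the 44 genes in each RNA-seq library, as the log2 ratio of its CPM to the mean of the 9 libraries, with genes grouped by role. The column of control 1 is blue for every gene and lowest for 35 of them, and that of control 2 is red for every gene.

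Per kb of transcript, UBE2C was the most abundant member in control cells at 194 ± 89.3 CPM per kb (SD, n = 3), followed by PCNA at 176 ± 94.2, MCM7 at 153 ± 77.3 and CDC20 at 135 ± 70.9. The least abundant were CENPE at 4.18 ± 2.89, E2F8 at 3.54 ± 2.504 and E2F2 at 2.28 ± 1.74 CPM per kb. Neighbours in this order differed by less than their SD.

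Re-expression of HIF-1α was compared with the control cells to ask how the pathway responds to the subunit that 786-O cells lack. Of the 44 members, 0 were called higher and 0 lower, as were 0% of all tested genes in either direction, with adjusted p from 0.208 (PCNA) to 0.989 (edgeR). At an unadjusted p under 0.05, 7 members were lower, against 8.23% of tested genes, and 0 were higher, against 11.1%. The 7 were PCNA, CDC20, E2F1, MCM7, CCNB1, PLK1 and BIRC5. The median log2 fold change of the members was −0.52, against 0.04 over all tested genes, and 38 members lay below 0, against 47.6%. Libraries of the 2 pools overlapped for all 44 members, whereas 11.2% of tested genes had all HIF-1α libraries below all controls and 12.9% had them above. DESeq2 without a replicate term also called 0 members, against 3.44% of tested genes higher and 1.89% lower.

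With the replicate number as a block, edgeR again called 0 members, with a smallest adjusted p of 0.0958 (MCM7). It called 5.41% of tested genes higher and 2.55% lower. By unadjusted p under 0.05 that fit had 9 members lower (20.5%), against 14.5% of tested genes, and 1 higher (CENPE, 2.27%), against 18.7%. DESeq2 with the block called 4 members lower, CDC20, MCM7, PCNA and E2F1, with adjusted p of 0.0367, 0.0293, 0.0330 and 0.0460. That share, 9.09%, is close to the 9.35% of tested genes it called lower. Without control library 1 the median was −0.89, and without control library 2 it was −0.29, with 0 members called either way.

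Overexpression of HIF-2α was compared with the same 3 control libraries, so the comparisons are not independent. Here 0 members were called higher and 0 lower (0% of tested genes in each direction, edgeR), adjusted p was 0.842 (CDC20) to 0.998, and 0 members had an unadjusted p under 0.05, against 3.35% of tested genes higher and 2.54% lower. The median log2 fold change was −0.19, against −0.02 over all tested genes, and 33 members lay below 0, against 52.5%. DESeq2 called 0 members without the block (0.246% of tested genes higher and 0.176% lower) and 0 with it (1.88% and 1.51%). With the block edgeR called 0 members at an adjusted p, and by unadjusted p under 0.05 it had 1 above control (CENPE) and 0 below, against 7.69% and 6.84% of tested genes. Libraries overlapped for all 44 members, while 5.19% of tested genes had all HIF-2α libraries below all controls and 6% had them above. The direction rested on single libraries, since the median was 0.11 without control library 2 and −0.56 without control library 1.

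HIF-1α cells were also compared directly with HIF-2α cells, which leaves the control libraries out of the difference. By edgeR 0 members were called higher (0.0281% of tested genes) and 0 lower (0.0211%), with a smallest adjusted p of 0.319 for RRM2. RRM2 was also the 1 member with an unadjusted p under 0.05, against 4.60% of tested genes lower and 9.04% higher. The median log2 difference was −0.38, against 0.02, and 40 members lay below 0, against 48.1% of tested genes. All HIF-1α libraries were below all HIF-2α libraries for 9 members, CDT1, PCNA, RRM2, E2F1, CCNB1, AURKB, PLK1, BIRC5 and UBE2C, that is 20.5%, against 8.82% of tested genes. DESeq2 without the block called 0 members, against 3.27% of tested genes higher and 0.97% lower. With the block it called RRM2 lower (adjusted p 0.00372), 1 member against 4.32% of tested genes. For RRM2, edgeR with the block gave an adjusted p of 0.0579. That fit called 0 members, against 4.54% of tested genes higher and 1.38% lower, and 4 members were lower at an unadjusted p under 0.05, against 9.68%.

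**Figure D3:**
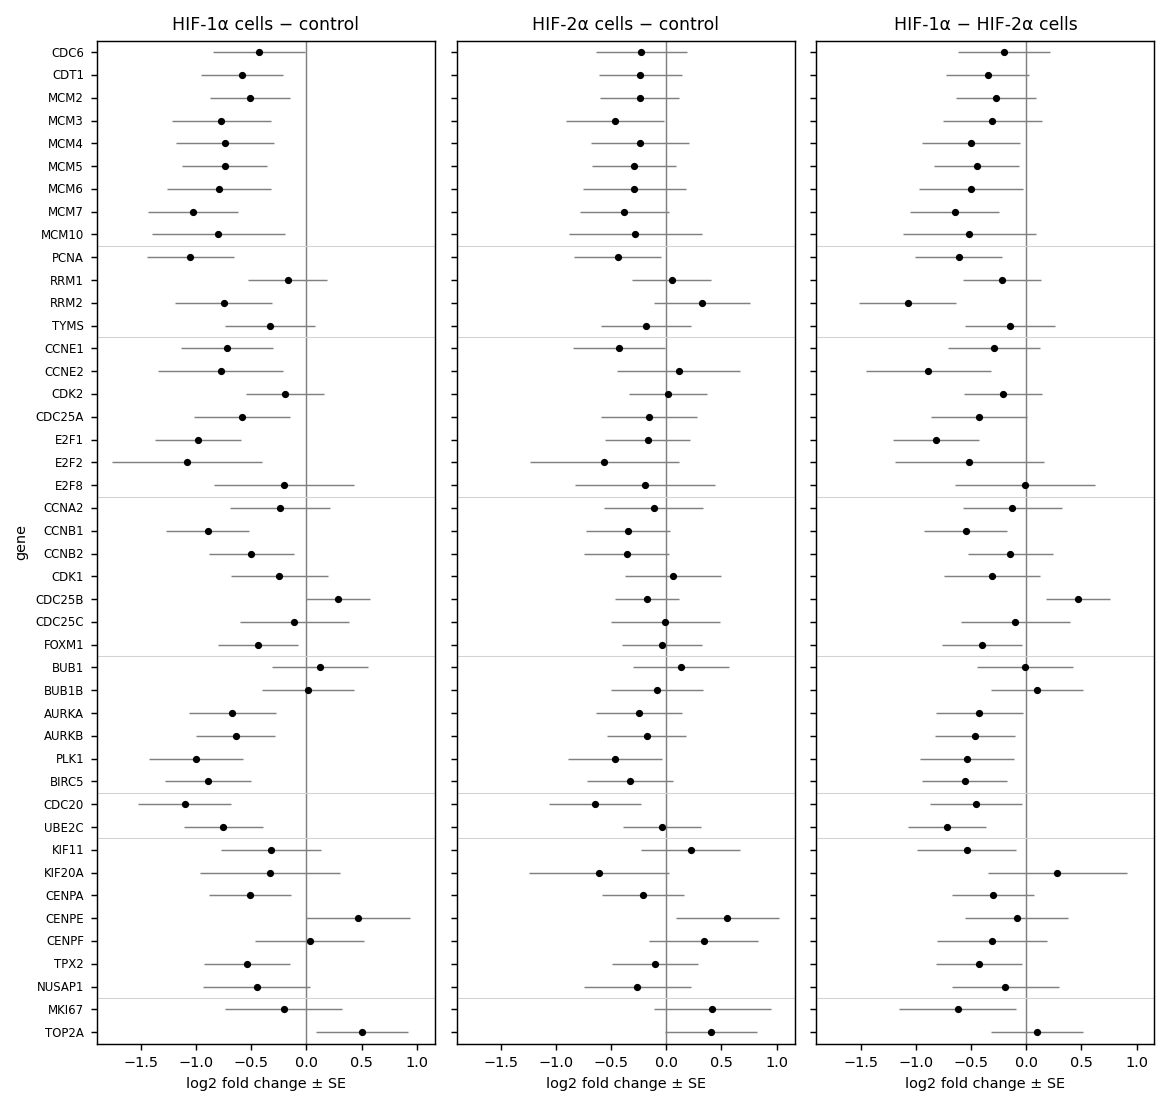
Fitted log2 fold change of each member with its standard error (edgeR without the replicate block, 3 libraries per pool). Panels compare HIF-1α with control cells, HIF-2α with control cells and HIF-1α with HIF-2α cells. Genes are grouped by role from replication at the top to MKI67 and TOP2A at the bottom, and 38, 33 and 40 points lie left of 0.

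The 9 licensing and origin firing genes act before replication forks start. CDC6 and CDT1 load the MCM2 to MCM7 helicase onto origins, and MCM10 takes part in firing it. MCM7 was at 157, 498 and 477 CPM in control cells, 177, 244 and 133 in HIF-1α cells and 233, 317 and 319 in HIF-2α cells. The first control library lay among the HIF-1α libraries and the other controls lay above both HIF pools. Its log2 fold change (edgeR without the replicate block, ± SE) was −1.03 ± 0.41 for HIF-1α against control and −0.65 ± 0.41 for HIF-1α against HIF-2α. All such values of members below are of this kind unless named as blocked. MCM2 was at 60.1, 159 and 148 CPM in control cells, 76.0, 115 and 66.1 in HIF-1α cells and 85.7, 123 and 102 in HIF-2α cells, with log2 fold changes of −0.51 ± 0.36 for HIF-1α and −0.24 ± 0.36 for HIF-2α against control and −0.27 ± 0.36 for HIF-1α against HIF-2α, the order kept below. The same low first control was seen. CDC6 was at 30.2, 89.2 and 66.6, 56.9, 56.7 and 24.7 and 49.2, 66.0 and 43.9 CPM in the respective pools, and its lowest library was replicate 3 of the HIF-1α cells. Its fold changes were −0.43 ± 0.42, −0.23 ± 0.41 and −0.20 ± 0.41. CDT1, at 17.9, 58.9 and 46.0, 21.2, 30.1 and 30.5 and 30.9, 35.3 and 38.2 CPM, differed by −0.58 ± 0.37, −0.23 ± 0.37 and −0.35 ± 0.37, and its HIF-1α libraries were all below its HIF-2α libraries. MCM3 had 1 of the 5 smallest p-values for HIF-2α, with −0.47 ± 0.45 against control. Over all 9 genes of this role the HIF-1α values ran from −1.03 to −0.43 with a median of −0.74, and 0 passed.

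PCNA is the sliding clamp of DNA polymerases, and RRM1, RRM2 and TYMS supply deoxynucleotides. PCNA was at 92.2, 252 and 328 CPM in control cells, 103, 131 and 88.4 in HIF-1α cells and 142, 160.2 and 192 in HIF-2α cells, so that control library 1 overlapped the HIF-1α libraries while these lay below all HIF-2α libraries. Its log2 fold changes were −1.05 ± 0.39 for HIF-1α, −0.44 ± 0.39 for HIF-2α and −0.61 ± 0.39 between the HIF pools. RRM2 was at 124, 387 and 265 CPM in control cells, 135, 233 and 92.2 in HIF-1α cells and 314, 402 and 255 in HIF-2α cells. It is the member whose HIF pools stood furthest apart, the highest HIF-1α library being below the lowest HIF-2α library, and its values were −0.75 ± 0.44, 0.32 ± 0.44 and −1.08 ± 0.44. Within pairs, RRM2 was lower in HIF-1α than in HIF-2α cells by log2 ratios of −1.21, −0.78 and −1.46. TYMS, at 36.1, 124 and 108, 46.1, 94.7 and 72.0 and 73.9, 79.0 and 82.8 CPM, had values of −0.33 ± 0.41, −0.18 ± 0.41 and −0.15 ± 0.41.

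Cyclin E with CDK2, the phosphatase CDC25A and the E2F factors govern entry into S phase. E2F1, an activator, was at 25.9, 74.7 and 77.1 CPM in control cells, 31.3, 38.8 and 19.8 in HIF-1α cells and 54.4, 54.2 and 49.7 in HIF-2α cells. The HIF-2α libraries were close together and above all HIF-1α libraries, while the controls spread over both. Its log2 fold changes were −0.98 ± 0.39, −0.17 ± 0.39 and −0.82 ± 0.39. CCNE1, cyclin E1, was scarce at 4.63, 10.0 and 17.3, 6.76, 7.16 and 5.47 and 6.93, 7.57 and 9.25 CPM in control, HIF-1α and HIF-2α cells, with values of −0.72 ± 0.42, −0.43 ± 0.42 and −0.29 ± 0.42. CCNE2, cyclin E2, at 7.06, 35.5 and 41.0, 13.7, 23.6 and 11.5 and 18.2, 35.8 and 36.2 CPM, gave −0.78 ± 0.56, 0.11 ± 0.56 and −0.89 ± 0.57. In both cyclins the first control library was the lowest of the 9. E2F2, another activator, had the widest range of all members, from 2.30 CPM in control library 1 to 20.3 in control library 2. All 7 genes of this role were below 0 for HIF-1α against control, with a median of −0.72, and 0 passed.

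Cyclins A and B with CDK1 carry cells from S phase into mitosis, CDC25 phosphatases activate them and FOXM1 drives transcription of many G2 genes. CCNB1, cyclin B1, was at 60.5, 186 and 199 CPM in control cells, 69.7, 95.2 and 74.4 in HIF-1α cells and 128, 102 and 120.2 in HIF-2α cells, and its HIF-1α libraries lay below the HIF-2α libraries and within the span of the controls. Its log2 fold changes were −0.90 ± 0.38, −0.35 ± 0.38 and −0.55 ± 0.38. CCNA2, cyclin A2, was at 30.8, 131 and 107, 47.6, 92.6 and 87.0 and 74.2, 95.6 and 78.0 CPM and differed by −0.24 ± 0.45, −0.12 ± 0.45 and −0.13 ± 0.45. These values are within 1 standard error of 0. CDK1 was at 57.9, 212 and 169.8, 73.3, 129 and 169 and 139, 167 and 153 CPM, with −0.24 ± 0.44, 0.06 ± 0.44 and −0.31 ± 0.44. FOXM1, at 112, 213 and 129, 129.9, 143 and 60.8 and 169, 165 and 107 CPM, was lowest in replicate 3 of the HIF-1α cells, with −0.44 ± 0.36, −0.04 ± 0.36 and −0.40 ± 0.36. CDC25B stood apart from the rest of the role, since its highest library was replicate 3 of the HIF-1α cells. It was at 107, 154 and 104 CPM in control cells, 133, 99.9 and 212 in HIF-1α cells and 119.6, 101.5 and 101.5 in HIF-2α cells, and differed by 0.47 ± 0.29 between the HIF pools.

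PLK1 and the Aurora kinases drive mitosis, BUB1 and BUB1B hold the spindle checkpoint, and BIRC5 (survivin) belongs with AURKB to the chromosomal passenger complex. PLK1 was at 48.6, 201 and 163 CPM in control cells, 60.5, 88.8 and 56.9 in HIF-1α cells and 108, 100.3 and 90.2 in HIF-2α cells, so its HIF-1α libraries were below all HIF-2α libraries, and control library 1 was below all of both. Its log2 fold changes were −1.001 ± 0.43, −0.46 ± 0.42 and −0.54 ± 0.42. BIRC5 was at 85.3, 283 and 272 CPM in control cells, 92.8, 133 and 121 in HIF-1α cells and 183, 145 and 181 in HIF-2α cells, with −0.89 ± 0.39, −0.33 ± 0.39 and −0.56 ± 0.39. As for PLK1, its HIF-1α libraries lay below its HIF-2α libraries and above control library 1. AURKA, at 50.9, 184 and 136, 59.8, 99.8 and 73.5 and 112, 102 and 99.1 CPM, gave −0.67 ± 0.39, −0.25 ± 0.39 and −0.43 ± 0.39.

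CDC20 and UBE2C serve the anaphase-promoting complex, CDC20 as its activator and UBE2C as the enzyme that supplies ubiquitin. CDC20 was at 87.3, 290.0 and 289 CPM in control cells, 103, 128 and 79.7 in HIF-1α cells and 186, 124 and 116 in HIF-2α cells. Both later controls were above all HIF libraries, and the first control was below 5 of these 6. Its log2 fold change for HIF-1α, −1.10 ± 0.42, was the most negative among the members, and the others were −0.65 ± 0.42 for HIF-2α and −0.45 ± 0.42 between the HIF pools. UBE2C was at 70.5, 189 and 192 CPM in control cells, 71.8, 88.4 and 108 in HIF-1α cells and 157, 117 and 166 in HIF-2α cells, with HIF-1α below HIF-2α in all libraries. Its value between the HIF pools was −0.72 ± 0.36.

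KIF11 and KIF20A are mitotic kinesins, CENPA, CENPE and CENPF belong to centromeres and kinetochores, and TPX2 and NUSAP1 bind spindle microtubules. CENPF was at 79.0, 311 and 118 CPM in control cells, 137, 233 and 148 in HIF-1α cells and 196, 315 and 131 in HIF-2α cells, with the second library the highest in each pool. Its log2 fold changes were 0.03 ± 0.50, 0.34 ± 0.50 and −0.31 ± 0.50. CENPE, the kinetochore motor, was at 16.9, 63.7 and 26.6, 38.8, 61.7 and 47.6 and 47.6, 77.0 and 32.8 CPM and differed by 0.55 ± 0.47 between HIF-2α and control cells. With the replicate block it was the 1 member with an unadjusted p under 0.05 there, against 7.69% of tested genes higher, and its adjusted p was 0.322 (edgeR). Its blocked value was 0.67 ± 0.28 there and 0.64 ± 0.28 for HIF-1α against control cells (unadjusted p 0.0456, edgeR). Between the HIF pools the blocked value was −0.03 ± 0.28. The rise was thus not particular to HIF-2α cells, and both comparisons use the same control libraries. KIF20A ranged from 15.2 CPM in control library 1 to 105 in control library 2. For HIF-1α against control the 7 genes of this role spread from −0.54 (TPX2) to 0.47 (CENPE).

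MKI67, the Ki-67 antigen, coats mitotic chromosomes, and TOP2A is the topoisomerase that untangles them. MKI67 was at 83.2, 389.7 and 186 CPM in control cells, 141, 298 and 133 in HIF-1α cells and 218, 424 and 237 in HIF-2α cells. Replicate 2 was the highest in each pool, and the pools overlapped. Its log2 fold changes were −0.20 ± 0.53, 0.42 ± 0.53 and −0.62 ± 0.53. TOP2A was at 133, 439.7 and 306 CPM in control cells, 276, 416 and 550.5 in HIF-1α cells and 347, 498 and 315 in HIF-2α cells. It was among the 6 members whose value for HIF-1α against control was above 0, with 0.50 ± 0.42, and it gave 0.40 ± 0.42 for HIF-2α and 0.10 ± 0.42 between the HIF pools.

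Because libraries of the same replicate number deviated together, ratios were also taken within each number. Relative to control cells, HIF-1α cells had 0 of 44 members lower in replicate 1 (47.6% of tested genes), 44 lower in replicate 2 (49.8%) and 37 lower in replicate 3 (46.6%). The median log2 ratio of the members was 0.37, −0.69 and −0.86 in the 3 pairs, while over all tested genes it was 0.02, 0.00 and 0.07. A pattern of higher in replicate 1 and lower in the other pairs was shown by 37 members, against 10.1% of tested genes. Relative to the same control libraries, HIF-2α cells had 0, 38 and 40 members lower, against 50.4%, 52.3% and 49.3% of tested genes, with medians of 1.07, −0.44 and −0.50. These ratios share the control libraries, and control library 1 was the one in which the members were low. Only MKI67, TOP2A, CENPE and CENPF were higher in HIF-2α cells in all 3 pairs, 9.09% of members against 19.7% of tested genes.

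Between HIF-1α and HIF-2α cells the pairs were more alike, with medians of −0.53, −0.22 and −0.46, against 0.006, −0.002 and 0.018 over all tested genes. Members lower in HIF-1α cells numbered 42, 39 and 29, against 49.3%, 50.3% and 48.9% of tested genes. In all 3 pairs 26 members were lower in HIF-1α cells (59.1%), against 24.1% of tested genes. Those 26 were 8 of the 9 licensing genes, 2 of the 4 genes of DNA synthesis, 5 of the 7 G1/S regulators, 2 of the 7 G2/M genes, 4 of the 6 mitotic kinases, checkpoint and passenger genes, 1 of the 2 genes of the anaphase-promoting complex, 3 of the 7 spindle genes and MKI67. In replicate 3 the median ratio of HIF-1α to control cells was −1.52 for licensing genes, −1.42 for G1/S regulators, −1.34 for the anaphase-promoting complex, −1.05 for DNA synthesis, −0.90 for the mitotic kinases and their group, −0.37 for the spindle genes, −0.30 for the G2/M genes and 0.18 for MKI67 and TOP2A. Low medians were thus found in replication and in mitotic roles. In replicate 2 the medians of the 8 roles ran from −1.13 for the anaphase-promoting complex to −0.23 for MKI67 and TOP2A. The difference between roles was not tested.

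**Figure D4:**
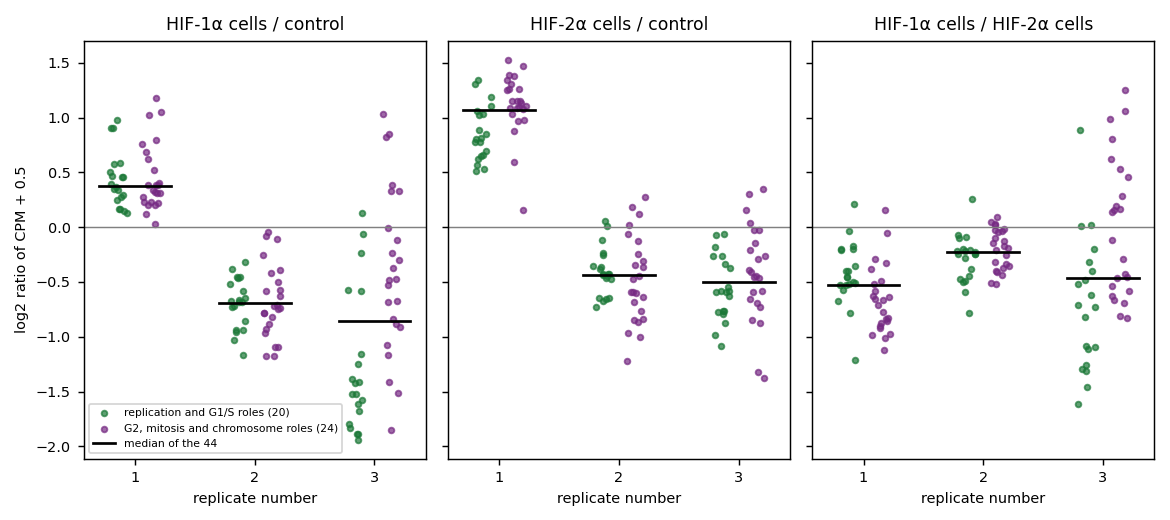
Log2 ratio of CPM (0.5 added) for each member within libraries of the same replicate number, for HIF-1α against control cells, HIF-2α against control cells and HIF-1α against HIF-2α cells. Green points are the 20 replication and G1/S genes, purple points the 24 others, and black bars the median of all 44, which falls from 0.37 in replicate 1 to −0.69 and −0.86 in the left panel.

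Levels of the members were also compared between replicate numbers. In edgeR's test of the number beside the pool, 8 members passed an adjusted p of 0.05, MKI67, CDK2, E2F2, E2F8, BUB1, KIF11, CENPE and CENPF, which is 18.2% of members against 15.4% of tested genes. Fitted levels in replicate 2 were above replicate 1 for 43 members, against 49.4% of tested genes, with a median log2 difference of 0.89 against −0.01. The exception was CDC25B. The largest of these differences among the 8 were those of E2F2 (1.81), E2F8 (1.70) and MKI67 (1.39). In HIF-1α cells 26 members were lowest in replicate 1, in HIF-2α cells 23 and in control cells 43, against 33.9%, 33% and 34.7% of tested genes. Lowest in replicate 1 of every pool were 13 members, against 11.7% of tested genes. Without the control libraries 0 members passed, against 1.67% of tested genes, and without the HIF-1α or the HIF-2α libraries 0 and 3 did, against 4.49% and 5.14%. DESeq2's likelihood ratio test called 21 members (47.7%), against 27.8% of tested genes. The sources used here do not say what the numbers stand for beyond RNA prepared in triplicate.

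Other genes of the pathway were read from wider lists. Of 35 further DNA replication genes 0 were called in any of the 3 comparisons of pools (edgeR without the block). That fit called 0% of all tested genes in both comparisons with control cells and 0.0492% between the HIF pools. The median log2 fold change of the 35 in HIF-1α cells was −0.47 against control cells and −0.35 against HIF-2α cells, beside 0.04 and 0.02 over all tested genes. For 50 further genes of G2 and mitosis the counts were also 0, with medians of −0.24 and −0.28. In 16 transcription regulators of the cell cycle 0 were called and the medians were 0.05 and −0.04. For HIF-2α against control cells the medians of these 3 lists were −0.16, −0.004 and 0.15, beside −0.02 over all tested genes. By replicate number 4 of the 35, 10 of the 50 and 4 of the 16 passed (edgeR), beside 15.4% of all tested genes.

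Brakes of G1 and D cyclins made up a list of 17 genes, of which 14 were tested. Without the block 0 were called, and with the block edgeR called 2 higher (CDKN1C and CCNG2) and 2 lower (CDK4 and CCND3) in HIF-1α than in control cells, while the same fit called 5.41% of all tested genes higher and 2.55% lower. CDKN1C, the CDK inhibitor p57, was at 13.2, 6.20 and 45.4 CPM in HIF-1α cells, 4.14, 2.33 and 6.305 in control cells and 1.54, 0.977 and 1.105 in HIF-2α cells, with a blocked log2 fold change against control of 2.08 ± 0.44 (SE) and an adjusted p of 0.0366 (edgeR). Its HIF-1α libraries were above the control library of the same number each time. CDK4, the kinase partner of D cyclins, was at 162, 137 and 131 CPM in HIF-1α cells against 261, 232 and 249.6 in control cells, without overlap, with a blocked value of −0.80 ± 0.16 (adjusted p 0.0358, edgeR). CCNG2, a cyclin linked to arrest, was at 26.1, 78.1 and 74.6 CPM against 22.2, 23.6 and 17.0 (1.38 ± 0.34, adjusted p 0.0452, edgeR). CCND3, cyclin D3, was at 32.3, 52.2 and 21.9 CPM against 55.0, 74.8 and 55.6 (−0.87 ± 0.22, adjusted p 0.0454, edgeR). Without the block, edgeR's adjusted p of these 4 genes was 0.149 to 0.228. Against HIF-2α cells only CDKN1C was called, with the block (3.74 ± 0.49, adjusted p 0.00502, edgeR). In that list and the one of regulators, 2 genes were picked out after their values were seen, for their level in control library 1. CDKN1A, the CDK inhibitor p21, was at 817 CPM there and at 162 to 431 in the other 8 libraries, and MYBL2, the gene of B-MYB, was at 39.9 there and 52.7 to 225 elsewhere. Control library 1 was the highest library for 10.6% of tested genes and the lowest for 10.4%. Most other genes of these lists are not given for that library, and the cause of these 2 levels was not tested.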

How the data were processed

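RNA-seq was performed on polyA+ RNA (ScriptSeq v2, a directional kit) in 9 libraries. Per the labels and methods, the authors trimmed reads with Trim Galore 0.3.3, aligned them to GRCh37 with TopHat2 2.0.8b and Bowtie 1.0.0, counted them per UCSC gene with HTSeq 0.5.4p3 in intersection-strict mode, and deposited raw counts per gene symbol. The strand setting of HTSeq is not given in the sources used here. For ChIP-seq the authors aligned with BWA 0.7.5a-r405, removed reads of low mapping quality and duplicates, kept peaks called by both MACS and T-PIC, and deposited positions as windows of 2500 bp with no score, so their depth is unknown. Columns of input libraries were not used here.

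Tests were run on the counts with edgeR 4.0.16 under R 4.3.3 (TMM, its filter on low counts, quasi-likelihood test, Benjamini-Hochberg over 14225 genes, two-sided, threshold 0.05) in 1 fit of 9 libraries with the pool as the only term. Ratios within pairs were log2 of CPM plus 0.5. The replicate numbers pair the libraries: with pool means subtracted, correlations over genes were 0.377 to 0.650 in the 9 pairs that share a number and −0.451 to 0.0205 in the 18 that do not. A fit with that block, DESeq2 1.42.0 and the others named in the closing section were alternatives. As nothing says that the libraries came from separate cultures, p-values measure the spread between these preparations. The biological coefficient of variation was 37.6% without the block and 24.6% with it. Unless named as blocked, values of members with an SE are from the fit without the block, which leaves this pairing out. For HIF-1α against control the SE of MKI67 was 0.53 without the block and 0.26 with it, and that of CDC20 was 0.42 in both. As the fit without the block called 0 of all tested genes against control cells, its 0 members do not show an absence of change. Symbols were placed on the GENCODE annotation of GRCh37, 12877 of the tested genes by the same symbol, 892 by an older one, and 456 not at all. The scripts were tested on simulated data. Genes given full statistics were 20 fixed members and, per comparison, the 5 with the smallest p. The members and lists were chosen with earlier results of these data known.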

Additional observations from a re-analysis of the deposited data

How the results depend on the processing

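The count of members called stayed at 0 in both directions of each comparison of pools under RLE factors, no filter on low counts, only the pools compared, DESeq2 without a replicate term and edgeR with the replicate block (value 0 in each comparison and direction). Over all tested genes the calls for HIF-1α against control were 0 in the report, 1132 with the block, 759 by DESeq2 and 3010 by DESeq2 with the block, for HIF-2α 0, 38, 60 and 482, and between the HIF pools 7, 843, 603 and 1777. DESeq2 with the replicate block called 4 members lower for HIF-1α against control and 1 lower for HIF-1α against HIF-2α. In the fit with the block and without replicate 1, 2 members (CDC20 and PLK1) were called lower for HIF-1α against control. That fit called 2.06% of all tested genes in either direction for this comparison. All alternatives that left out libraries gave 0 to 2 members lower for HIF-1α against control, and 0 for each of the other counts. Over the same alternatives the median log2 fold change of the members ran from −0.89 to −0.22 for HIF-1α, from −0.56 to 0.20 for HIF-2α and from −0.63 (without HIF-1α replicate 2) to −0.28 between the HIF pools. Members that differed between replicate numbers were 8 in the report (15.4% of tested genes), 21 by DESeq2's likelihood ratio test (27.8%), 0 without the control libraries (1.67%), 0 without the HIF-1α libraries (4.49%) and 3 without the HIF-2α libraries (5.14%), and the cause of these changes was not tested. Within 50 kb of a start site, which takes in more peaks by construction, members with a peak were 24 for HIF-1α (50.6% of tested genes), 25, 22 and 14 for HIF-1β in HIF-1α, control and HIF-2α cells (57.3%, 44.1% and 30.1%), and 6, 9 and 13 for HIF-2α in HIF-1α, control and HIF-2α cells (10.4%, 12.1% and 28.4%). Within 2 kb the count fell to 3 for HIF-1β and 4 for HIF-2α in HIF-2α cells (12.1% and 9.25% of tested genes), and with 1 start site per gene HIF-2α there was at 7 (9.80%).

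Of 66 named fold changes, 38 kept their sign in every alternative, and of 1188 alternative values 70 had the other sign and 7 were past the threshold. CCNA2 turned to 0.10 for HIF-2α with the replicate block, in edgeR and in DESeq2 (0.10), and the cause was not tested. Other sign changes among these 66 came when libraries were left out. For HIF-1α against control the ranges were CCNA2 −0.66 to 0.12, CCNE2 −1.24 to 0.10, CDC6 −1.04 to 0.083, CDK1 −0.63 to 0.12, CENPF −0.32 to 0.80 and MKI67 −0.71 to 0.49. For HIF-2α against control they were AURKA −0.65 to 0.29, BIRC5 −0.76 to 0.20, CCNA2 −0.53 to 0.39, CCNB1 −0.79 to 0.086, CCNE1 −0.79 to 0.11, CCNE2 −0.35 to 0.60, CDC6 −0.55 to 0.13, CDK1 −0.32 to 0.58, CDT1 −0.59 to 0.23, CENPF −0.057 to 1.13, E2F1 −0.55 to 0.25, FOXM1 −0.31 to 0.29, MCM2 −0.57 to 0.046, MCM3 −0.86 to 0.072, PLK1 −0.92 to 0.041, RRM2 −0.011 to 0.74 and TYMS −0.56 to 0.29. Between the HIF pools they were CCNA2 −0.40 to 0.11, CDC6 −0.52 to 0.10, CENPF −0.62 to 0.060, TOP2A −0.30 to 0.31 and TYMS −0.48 to 0.078.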
